A study of Mus musculus with 2 samples.

Results

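The 8 genes described here encode molecules with which leukocytes leave the blood and enter skin: the endothelial selectins *Sele* and *Selp*, the immunoglobulin-family ligands *Icam1* and *Vcam1*, and the leukocyte counter-receptors *Selplg*, *Itgal*, *Itgb2* and *Itga4*. They were chosen as a family, not by a threshold on measured values, and are 8 of the 27998 genes in the deposited tables, where both libraries list all 8. Single cells of mouse ear skin were profiled by droplet scRNA-seq, which tags the 3′ end of each mRNA with a unique molecular identifier (UMI). The control (CTRL) library came from skin labelled only as healthy. The allergic contact dermatitis (ACD) library came from ear skin to which 2,4-dinitrofluorobenzene (DNFB), a hapten, had been applied. Per the labels and methods, the mice were ICR, an outbred strain, and 7 to 8 weeks old, and those given DNFB were male. In the ACD group, 25 μL of 1.0% DNFB sensitized the dorsal skin, 20 μL of 0.2% DNFB was painted on each ear 6 days later, and the ears were taken 60 hr after that. How many mice were pooled in a library is not given in the sources used here.

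In inflamed tissue, leukocytes first roll along the wall of postcapillary venules, held by E-selectin (*Sele*) and P-selectin (*Selp*), which bind sialylated and fucosylated glycans carried by PSGL-1 (*Selplg*). Arrest follows when leukocyte integrins bind immunoglobulin-family ligands: LFA-1, the pair of *Itgal* and *Itgb2* chains, binds ICAM-1, and VLA-4, the pair of *Itga4* and *Itgb1* chains, binds VCAM-1. P-selectin protein is also held ready-made in granules of platelets and endothelial cells, so its mRNA and its display on the cell are separate quantities.

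On GRCm38, the build to which the reads were aligned, *Sele* (ENSMUSG00000026582) spans 1:164048234-164057677 and *Selp* (ENSMUSG00000026580) spans 1:164115264-164150026, both on the + strand and 57586 bases apart. *Icam1* (ENSMUSG00000037405) lies at 9:21015985-21028817 on the + strand, *Vcam1* (ENSMUSG00000027962) at 3:116109949-116129688 on the - strand, and *Selplg* (ENSMUSG00000048163) at 5:113818536-113832644 on the - strand. The integrin genes *Itgal* (ENSMUSG00000030830, 7:127296260-127335138), *Itgb2* (ENSMUSG00000000290, 10:77530252-77565708) and *Itga4* (ENSMUSG00000027009, 2:79255426-79333123) are on the + strand.

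The promoters of the neighbouring selectin genes are shown because their UMIs lay in the same few cells, and that of *Icam1* because its UMIs were found in nearly every class. RefSeq windows on GRCm38.p6, 250 bases before to 50 after each start, were found for 4 of the 8 genes, *Sele*, *Selp*, *Icam1* and *Itga4*. The windows printed are chr1:164047984-164048283 for *Sele*, chr1:164115014-164115313 for *Selp* and chr9:21015690-21015989 for *Icam1*, all on the + strand and 5′ to 3′, and capitals mark every match, on either strand, to the 4 motifs named below them.
Sele: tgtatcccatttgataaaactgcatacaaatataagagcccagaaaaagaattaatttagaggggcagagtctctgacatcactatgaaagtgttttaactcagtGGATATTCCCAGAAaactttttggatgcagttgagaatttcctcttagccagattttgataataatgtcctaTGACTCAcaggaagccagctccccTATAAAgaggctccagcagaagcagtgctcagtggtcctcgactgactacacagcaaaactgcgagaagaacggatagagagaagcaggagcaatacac
Selp: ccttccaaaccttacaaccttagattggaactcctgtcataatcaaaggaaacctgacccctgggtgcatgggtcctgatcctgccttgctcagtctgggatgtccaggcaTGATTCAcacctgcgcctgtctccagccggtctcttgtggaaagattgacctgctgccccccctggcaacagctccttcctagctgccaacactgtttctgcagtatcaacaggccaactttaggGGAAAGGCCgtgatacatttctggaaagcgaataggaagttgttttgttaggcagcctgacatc
Icam1: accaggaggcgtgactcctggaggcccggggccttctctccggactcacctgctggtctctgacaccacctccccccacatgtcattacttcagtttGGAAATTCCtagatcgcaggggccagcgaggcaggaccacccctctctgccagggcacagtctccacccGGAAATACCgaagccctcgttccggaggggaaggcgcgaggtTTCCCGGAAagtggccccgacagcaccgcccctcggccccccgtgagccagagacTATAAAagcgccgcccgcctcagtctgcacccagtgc
The motifs were a κB-like GGNNNTTCC, a GAS-type TTCNNNGAA, an AP-1-type TGANTCA and a TATAAA box, and they were chosen with these sequences in view. *Sele* held all 4, with the κB-like match at base 106 of the window overlapping the GAS-type match at base 111, the AP-1-type match at base 178 and TATAAA at base 202. *Selp* held a κB-like match at base 237, on the opposite strand, and an AP-1-type match at base 112, but neither of the other motifs. *Icam1* held κB-like matches at bases 98 and 167, the latter on the opposite strand, a GAS-type match at base 209 and a TATAAA at base 264, and *Itga4* held none of the 4. Of 32851 windows of this length in the table, 18.5% held the κB-like motif, 8.30% the GAS type, 7.81% the AP-1 type and 13.6% TATAAA. These are matches of letters, not sites shown to be used in these cells.

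After the filter, 12213 of 12895 control barcodes and 11665 of 13163 ACD barcodes were kept, with a median of 6850 and 7447 UMIs, and 50 barcode sequences occurred in both deposited lists. Cells were named by gates on marker genes, so a name such as endothelial stands for the cells that passed that gate and need not match the clusters of the study. Each condition was 1 library, so no comparison of ACD with control could be tested, and differences between mice cannot be told apart from differences between conditions. Levels are UMIs of a gene per 1000000 UMIs of a class (CPM), and ranges in parentheses are exact 95% intervals that cover counting error only. Because a 3′ tag is read once per mRNA whatever its length, but capture differs between genes, levels are compared between cells for 1 gene and not between genes. Barcodes passing the gates of more than 1 lineage formed a separate mixed group. It also took barcodes passing 1 gate, other than the fibroblast and chondrocyte gates, that were high in stromal RNA. That meant over 2% of UMIs from fibroblast markers or over 0.5% from chondrocyte markers. The group was 3.25% of the control library and 4.34% of the ACD library. No gate was passed by 14.7% and 13.2% of cells.

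The endothelial gate took 130 control and 111 ACD cells. *Pecam1*, which encodes the junction protein CD31, was found in 86.9% and 87.4% of them, and *Ptprc*, the pan-leukocyte marker, in 0% and 5.41%. Most were lymphatic: 104 control and 80 ACD cells carried at least 3 of 6 lymphatic markers, 19 and 30 carried at most 1 and are called blood endothelial here, and 7 and 1 lay between. *Prox1*, the regulator of lymphatic identity, was found in 91.3% and 87.5% of the lymphatic cells, against 15.8% and 0% of the blood endothelial cells. The name blood endothelial rests on few lymphatic markers. *Flt1*, a marker of the endothelial gate, was found in 63.2% of the control and 90% of the ACD cells so named. Assigning every cell to the class of highest likelihood gave the same name to 78.9% and 96.7% of them. The share of blood endothelial cells among endothelial cells thus differed between the libraries, and so did their depth, with a median of 4725 UMIs in control and 12439 in ACD. The part these differences played in the pooled endothelial values was not tested, and the ligands are therefore given for each kind separately, a split made after seeing the data.

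*Sele* and *Selp* were carried by a small set of cells. In the control library, 5 blood endothelial cells held all 90 *Sele* UMIs and all 232 *Selp* UMIs of the endothelial class, and the same 5 were the only blood endothelial cells with a UMI of *Ackr1*, the atypical chemokine receptor that marks venules. In order of their *Selp* counts, these 5 cells had 4, 19, 57, 73 and 79 *Selp* UMIs beside 5, 6, 25, 23 and 31 *Sele* UMIs. In the ACD library, 13 blood endothelial cells held the 180 *Sele* UMIs, from 1 to 39 each with a median of 6, and 17 held 258 *Selp* UMIs, from 1 to 47 with a median of 10. The 15 ACD cells with *Ackr1* held 170 and 243 of these UMIs. Both selectins were found together in 5 of 19 control and 12 of 30 ACD blood endothelial cells. Each selectin was thus found in more ACD cells, but with fewer UMIs in the typical positive cell.

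**Figure D1:**
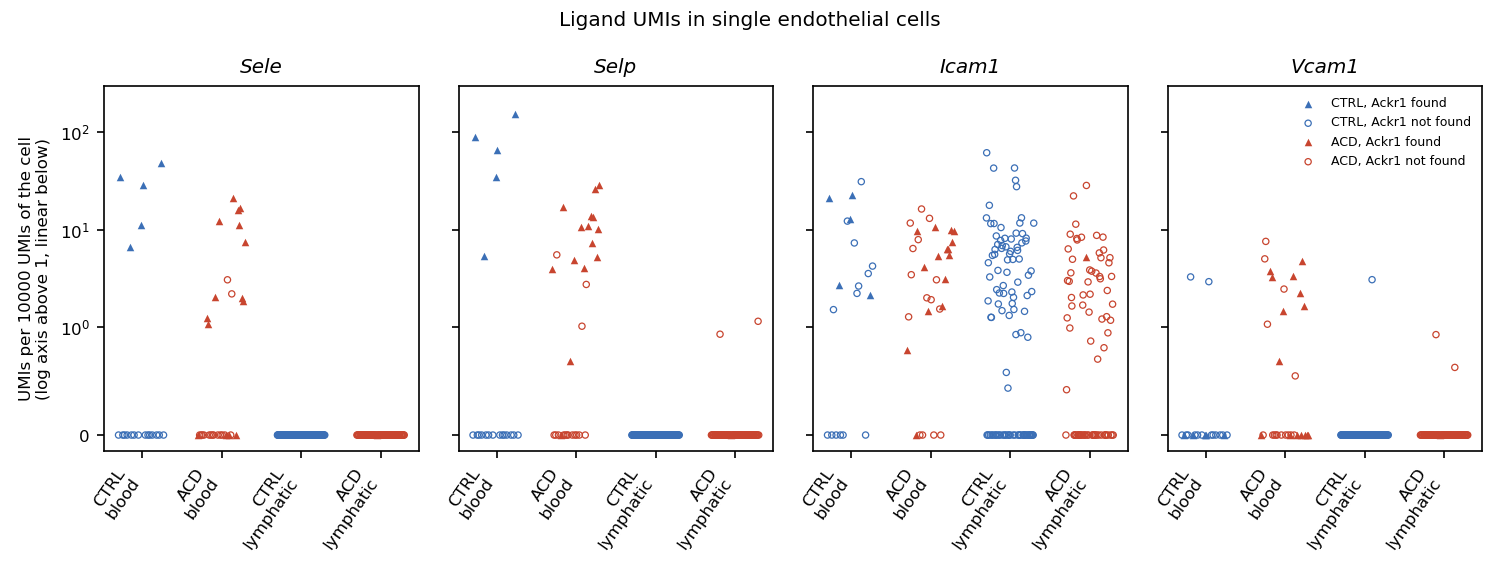
UMIs of each ligand per 10000 UMIs of the cell (vertical axis, logarithmic above 1 and linear below) in every blood and lymphatic endothelial cell of the CTRL and ACD libraries, with triangles for cells in which Ackr1 was found and open circles for the rest. All 5 CTRL cells with Sele also held Selp and Ackr1, the lymphatic cells lay at 0 for Sele in both libraries, and Icam1 was spread over both kinds of cell.

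In CPM of blood endothelial cells, *Sele* was at 928 (746 to 1141) in control and 466 (400.0 to 539) in ACD, a ratio of 0.502 (0.387 to 0.654). *Selp* was at 2392 (2094 to 2721) in control and 667 (588 to 754) in ACD, a ratio of 0.279 (0.233 to 0.335). The intervals of the 2 libraries did not overlap for either gene. They treat UMIs as independent, however, and all control UMIs in this class came from 5 cells, so the spread between cells is not covered. Within the cells with *Ackr1* the order was the same: *Sele* was at 2556 in the 5 control cells and 752 in the 15 ACD cells, and *Selp* at 6588 and 1075. When all endothelial cells were pooled, the order for *Sele* turned around, with 95.1 in control and 148 in ACD, a ratio of 1.56 (1.203 to 2.03). That pooled ratio was 0.882 as a mean over cells and 0.169 without cells above 15000 UMIs, a limit that left 17 of the 180 ACD UMIs, so no direction for *Sele* is drawn from the pooled class. The same limit moved the blood endothelial ratio of *Sele* to 0.0861 and that of *Selp* to 0.181. Pooled *Selp* was at 245 and 215, a ratio of 0.876 (0.731 to 1.05), and 1.26 with all barcodes and 1.11 under a stricter filter, so no direction is drawn from it either.

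After thinning every cell to 2000 UMIs, *Sele* was found in 5 of 18 control cells, 27.8% (9.69 to 53.5), and in 8 of 30 ACD cells, 26.7% (12.3 to 45.9), with 1 shallower control cell left out. *Selp* was found in 27.8% of the control cells and 36.7% (19.9 to 56.1) of the ACD cells. Without thinning the shares were 26.3% and 43.3% for *Sele* and 26.3% and 56.7% for *Selp*. In chondrocytes, a class that should lack both genes and whose median depth was 7899.5 and 9349 UMIs, *Sele* was found in 0.0265% and 0.0394% of thinned cells. At matched depth the shares of blood endothelial cells with a selectin had widely overlapping intervals.

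No *Sele* UMI was found in 104 control and 80 ACD lymphatic cells, where 0 UMIs allow a level of up to 3.69 and 3.63 CPM. *Selp* had 0 and 3 UMIs there. Pericytes and keratinocytes of both libraries held no UMI of either selectin. In fibroblasts *Sele* had 4 UMIs in each library and *Selp* had 5 and 10, and all leukocytes held 1 and 13 *Selp* UMIs and no *Sele*, all of these levels being below 1 CPM. Mixed barcodes held 7 control and 85 ACD *Sele* UMIs, which were 6.14% and 29.2% of the *Sele* UMIs of each library, and 5 control and 13 ACD barcodes passed both the endothelial and the leukocyte gate. Whether these were doublets was not tested. With mixed barcodes that passed the endothelial gate counted as endothelial, a choice made after seeing the data, the blood endothelial ratios became 0.861 for *Sele* and 0.365 for *Selp*.

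*Icam1*, the ligand of LFA-1, was found in blood and lymphatic endothelial cells alike. In blood endothelial cells it was at 804 (636 to 1004) in control and 489 (422 to 564) in ACD, from 78 UMIs in 13 cells and 189 UMIs in 25 cells. In lymphatic cells it was at 418 (374 to 465) and 296 (260.4 to 336), from 340 UMIs in 65 cells and 245 UMIs in 45 cells. The ACD level was lower in both kinds, at ratios of 0.608 (0.465 to 0.802) and 0.709 (0.599 to 0.839). Within each library the blood endothelial level was the higher of the 2, with intervals that did not overlap. Counting mixed barcodes as endothelial moved the blood endothelial ratio to 0.888.

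*Vcam1*, the ligand of VLA-4, showed the opposite order in blood endothelial cells. It had 3 UMIs in 2 of 19 control cells and 55 UMIs in 13 of 30 ACD cells, levels of 30.9 (6.38 to 90.4) and 142 (107 to 185) and a ratio of 4.60 (1.49 to 23.0). The control value rests on 3 UMIs. The ratio was 3.87 as a mean over cells, 4.09 with a stricter filter and 4.13 with at most 1 marker of a second lineage tolerated. It was 4.44 with median-of-ratios size factors, 5.02 without cells above 15000 UMIs, 7.30 with all barcodes and 10.6 with mixed barcodes kept. The remaining 3 settings each left 1 control UMI. The ratio was then 10.7 without the cell of each library with the most *Vcam1* UMIs, 15.1 with 1 more marker required and 21.9 by likelihood assignment. It was above 1 under each of these settings, but its size is not fixed by these data. In lymphatic cells it had 2 and 3 UMIs. *Sele* and *Vcam1* were found together in 7 of 30 ACD blood endothelial cells and in 0 of 19 control cells. The ACD level was 146 in cells with *Ackr1* and 137 in cells without, whereas *Selp* was at 1075 and 93.4. After thinning to 2000 UMIs, *Vcam1* was found in 0 of 18 control cells (exact upper bound 18.5%, and 3 cells would be 16.7%, both limits on cells with a UMI at that depth and not on cells expressing the gene) and in 4 of 30 ACD cells. Unthinned shares were 10.5% and 43.3%.

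Among the blood endothelial cells, venous, arterial and capillary markers were also scored, and a cell could score for more than 1 kind. The 6 control and 18 ACD cells with at least 3 venous markers had *Selp* at 5544 and 777. The 7 control and 9 ACD cells with at least 3 arterial markers had 0 *Selp* UMIs in control and 15 in ACD, the latter all in 1 cell. At least 2 capillary markers were found in 1 control and 11 ACD cells. These marker counts were not thinned, the ACD cells were deeper, and whether the vessel types differed between the libraries was not tested.

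To set the members beside all genes, a ratio with 10 CPM added to each side was taken for every gene with at least 50 UMIs over both libraries. All 4 ligands were measured in blood endothelial cells, where 1 (*Vcam1*) passed a 2-fold difference upward and 1 (*Selp*) downward. Of the 1449 genes measured there, 9.45% passed upward and 5.8% downward, and with 4 members a count of 1 each way cannot be told apart from that background. In the pooled endothelial class 1 of 4 ligands (*Vcam1*) passed upward and 0 downward, against 2.82% and 1.14% of 5245 genes. *Vcam1* had 5 control and 58 ACD UMIs there, and 3 and 55 in blood endothelial cells. It thus reached 50 UMIs through the ACD library in both. In lymphatic cells *Icam1* alone was measured and it passed neither way, against 1.86% and 0.815% of 4295 genes.

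**Figure D2:**
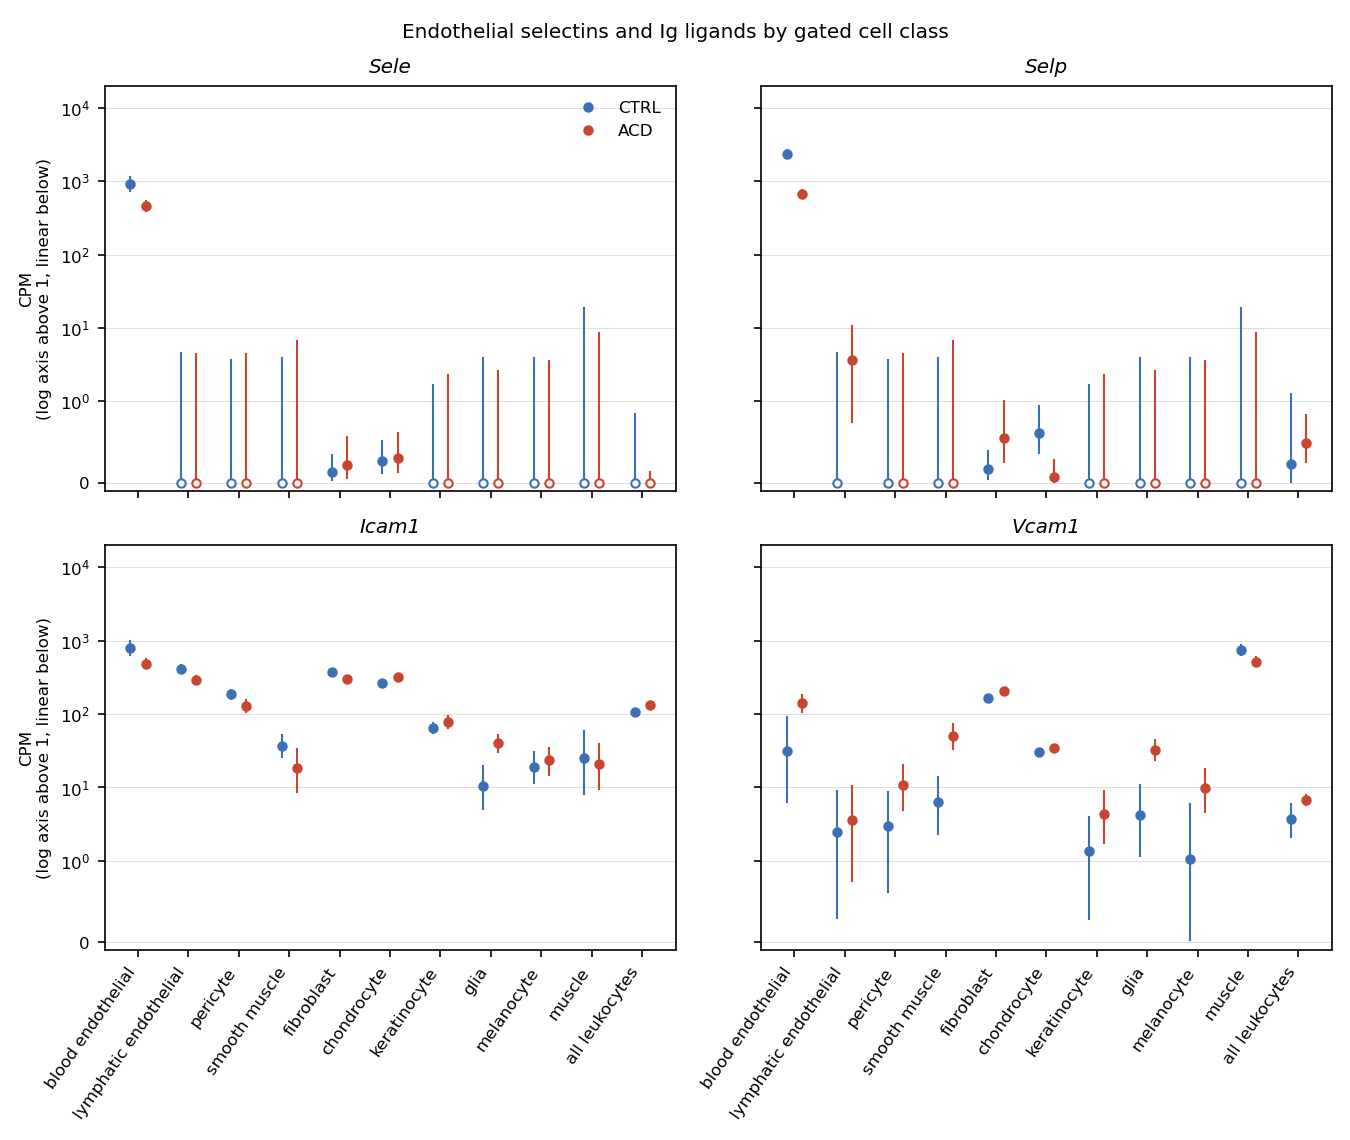
UMIs per 1000000 UMIs (vertical axis, logarithmic above 1 and linear below) of the 4 ligands in 11 gated classes of the CTRL and ACD libraries, with exact 95% Poisson intervals as bars and open symbols at 0. Sele and Selp stood out in blood endothelial cells alone, while Icam1 and Vcam1 were found across stromal classes.

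Further adhesion genes were read in the same endothelial cells. Of 16 further ligands and junction proteins, 8 were measured in the pooled endothelial class. Of these 8, 3 passed 2-fold upward, against 2.82% of 5245 genes: *Cd34* (ratio 3.85), *Jam2* (2.60) and *Icam2* (2.27). They encode a sialomucin, a junctional adhesion molecule and a further LFA-1 ligand. Within blood endothelial cells 0 of 8 passed, and within lymphatic cells 0 of 6. The share of blood endothelial cells in the pooled class differed between the libraries, and its part in the pooled count was not tested. *Icam2* was at 124 and 217 in blood endothelial cells, a ratio of 1.76 (0.954 to 3.53), and at 51.6 and 111 in lymphatic cells, a ratio of 2.16 (1.48 to 3.19). The lowest ratio in blood endothelial cells was that of *Cd24a*, a mucin-like protein that can bind P-selectin, at 856 and 95.7, a ratio of 0.112 (0.0738 to 0.167). *Podxl*, a sialomucin, followed at 0.600 (0.381 to 0.969). The largest ratios were those of *St3gal6*, a sialyltransferase, at 2.72 (1.18 to 7.68) and *Tln1*, encoding talin, at 1.78 (0.941 to 3.71). In the pooled class *Cd24a* (0.505) and *Tpst1*, a tyrosine sulfotransferase (0.502), were lowest. In lymphatic cells *Icam2* and *St3gal4* (1.73) were highest, and *Itgb3* (0.682) and *Tln1* (0.695) lowest. *Itgb1*, the partner chain of *Itga4*, was at 329.9 and 310.4 in blood endothelial cells and at 382 and 272 in lymphatic cells. *Itgam* and *Itgax* had no UMI in the endothelial class, and *Itgb7* had 1 in ACD.

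Pericytes, the contractile cells that wrap capillaries, carried *Icam1* at 185 (159.6 to 214) in 224 control cells and 128 (105 to 155) in 100 ACD cells, a ratio of 0.693 (0.542 to 0.884). *Vcam1* had 3 and 9 UMIs there, a ratio of 3.64 (0.907 to 20.9). The 159 control and 55 ACD smooth muscle cells had *Vcam1* at 6.39 (2.35 to 13.9) and 50.9 (33.8 to 73.6), from 6 UMIs in 3 cells and 28 UMIs in 12 cells, a ratio of 7.96 (3.23 to 23.5). *Icam1* in smooth muscle cells was at 37.3 and 18.2, a ratio of 0.487 (0.215 to 1.01). The vessel wall thus held the same order as blood endothelium, with *Icam1* lower and *Vcam1* higher in the ACD library, though the interval included 1 for *Vcam1* in pericytes and for *Icam1* in smooth muscle. *Icam1* alone reached 50 UMIs in pericytes and it passed 2-fold neither way, against 2.09% of 4649 genes upward and 1.31% downward. *Itga4* was found in mural cells too: those passing both the pericyte and the smooth muscle panel had 50 UMIs in 34 of 193 control cells and 168 in 76 of 176 ACD cells, a ratio of 1.92 (1.39 to 2.69). Among further adhesion genes in pericytes, *Tpst2* (1.36) and *Tpst1* (1.12) were highest and *Itgav* (0.545) and *Jam3* (0.587) lowest, and none passed 2-fold. *Itgb1* was at 794 and 622 in pericytes.

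Fibroblasts held the largest single share of both immunoglobulin-family ligands in control skin, 46.6% of *Icam1* and 64.8% of *Vcam1* UMIs, while making up 32.5% of all UMIs. *Icam1* was at 378 (371 to 385) in 3848 control cells and 301 (293 to 309) in 1789 ACD cells, a ratio of 0.794 (0.769 to 0.820). *Vcam1* was at 165 (161 to 170.1) and 204 (198 to 211), a ratio of 1.23 (1.18 to 1.29). The narrow intervals come from 11324 and 5508 *Icam1* UMIs and 4951 and 3744 *Vcam1* UMIs. The *Vcam1* difference rested on the deepest cells: without cells above 15000 UMIs the ratio was 0.962, while that of *Icam1* was 0.751. After thinning to 2000 UMIs *Vcam1* was found in 20.01% (18.7 to 21.3) of 3809 control cells and 21.1% (19.3 to 23.1) of 1769 ACD cells, intervals that overlap, with 39 and 20 shallower cells left out. Unthinned shares were 44.0% and 47.7%. In keratinocytes, a class with little *Vcam1*, 0.637% and 0.926% of thinned cells held it, at median depths of 14546 and 14442 UMIs against 7091 and 9196 in fibroblasts.

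The 2 ligands were unevenly spread over fibroblast subsets. Reticular or papillary fibroblasts, the matrix-producing cells of the dermis, had *Vcam1* at 223 (215 to 232) in control and 329 (313 to 346) in ACD, whereas perifollicular cells had 21.1 (14.9 to 29.1) and 53.8 (45.1 to 63.7). Progenitor cells had 113 and 149.8, and cells with preadipocyte markers 140.5 and 218. The *Vcam1* ratio was above 1 in all 4 subsets, from 1.33 (1.07 to 1.65) in progenitor to 2.55 (1.76 to 3.77) in perifollicular cells. The ACD cells were deeper in all 4, with medians of 13259 against 8347 UMIs in reticular or papillary cells. Subset markers were counted without thinning, and no subset ratio was taken without the deepest cells, so the part of depth was not tested. The *Icam1* ratio was below 1 in all 4, from 0.702 (0.607 to 0.811) in progenitor to 0.846 (0.757 to 0.944) in preadipocyte cells. Cells in more than 1 subset (343 and 178) had a *Vcam1* ratio of 1.10 (0.980 to 1.24). Among the 4 subsets *Icam1* was highest in preadipocyte cells in both libraries, at 450.2 (420.3 to 482) and 381 (349 to 415), next to 403 (391 to 415) and 329 (313 to 346) in reticular or papillary cells.

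In ACD, 351 fibroblasts held a UMI of *Cxcl9*, a chemokine that attracts CXCR3+ T cells, against 28 in control. *Vcam1* in these ACD cells was at 324 (308 to 340.1) and in the 1438 other ACD fibroblasts at 162 (155 to 168), a ratio of 2.00 (1.88 to 2.14). *Icam1* was at 369 (352 to 387) and 276 (267 to 285), a ratio of 1.34 (1.26 to 1.42). In control, the 28 cells with *Cxcl9* had *Icam1* at 565 and the 3820 others at 376, a ratio of 1.501 (1.28 to 1.75). Their *Vcam1* ratio was 1.14 (0.862 to 1.48), with an interval that included 1. Higher *Icam1* in cells with *Cxcl9* was thus found in both libraries. ACD fibroblasts without *Cxcl9* had *Vcam1* close to the control fibroblasts without it, a ratio of 0.978 (0.929 to 1.03), while their *Icam1* ratio was 0.733 (0.706 to 0.760). Cells with *Cxcl9* were deeper in both libraries, with medians of 13351 against 8160 UMIs in ACD and 10031.5 against 7066.5 in control. The part of depth in these differences was not tested.

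**Figure D3:**
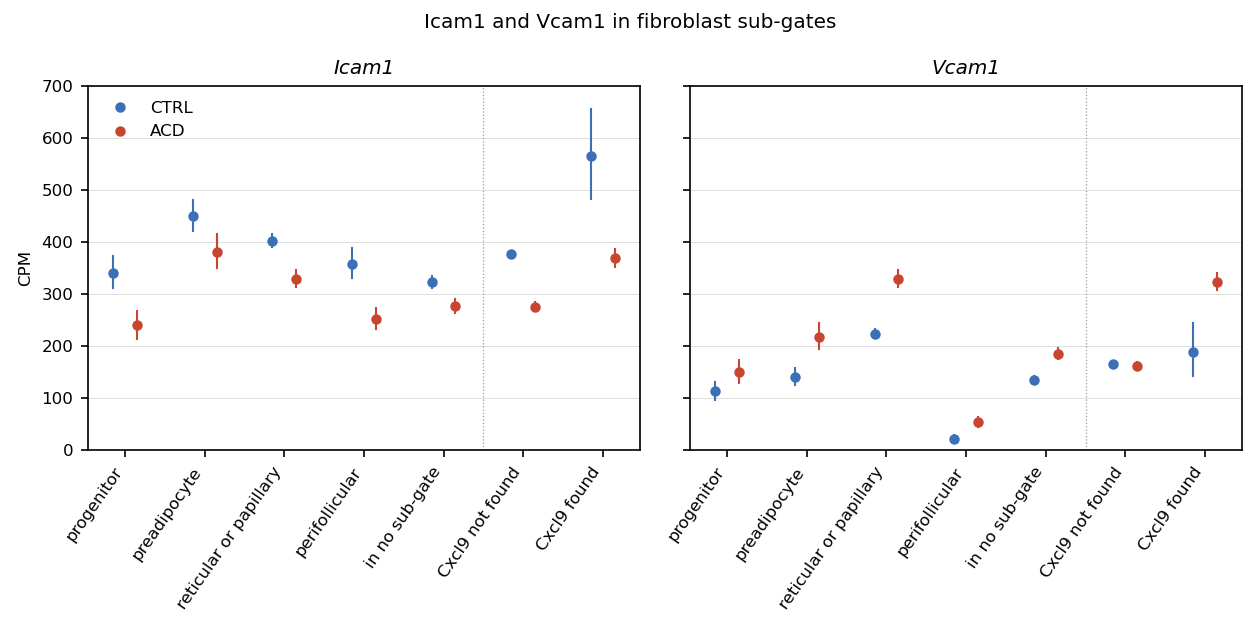
Icam1 and Vcam1 levels in CPM (vertical axis, linear from 0) in fibroblast sub-gates and in fibroblasts with and without a Cxcl9 UMI, for CTRL and ACD, with exact 95% Poisson intervals. Icam1 was lower in ACD in every column, and Vcam1 was higher in ACD in every column but that of cells without Cxcl9.

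By the all-gene measure, 4 members reached 50 UMIs in fibroblasts (*Icam1*, *Vcam1*, *Selplg* and *Itga4*) and 0 passed 2-fold either way, where 0.826% of 12234 genes passed upward and 0.0981% downward. *Itga4* in fibroblasts was at 6.18 (5.32 to 7.14) and 3.60 (2.78 to 4.58), a ratio of 0.582 (0.433 to 0.775). Among further adhesion genes *Cd2*, a T cell adhesion protein, had the largest ratio, 9.61 (4.70 to 22.2), from 9 and 53 UMIs in all fibroblasts, and *Ptprc* was found in 0.416% and 2.68% of them. *Selplg*, a member carried mainly by leukocytes, was at 0.468 (0.256 to 0.785) and 2.35 (1.70 to 3.16) in fibroblasts, from 14 and 43 UMIs, a ratio of 5.01 (2.69 to 9.92), and it passed 2-fold when 1 CPM was added in place of 10. Leukocyte RNA thus moved with *Cd2* and *Selplg* in this class, and its part was not tested. *F11r*, encoding the junctional protein JAM-A, followed at 4.55 (2.65 to 8.15), and *Icam5* (0.617) and *Itgb3* (0.701) were lowest. *Itgb1* had a ratio of 0.765.

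Keratinocytes, the epithelial cells of the epidermis and follicle, carried *Icam1* at 65.0 (54.8 to 76.6) in 157 control cells and 78.7 (65.6 to 93.6) in 116 ACD cells, a ratio of 1.21 (0.946 to 1.55) whose interval includes 1. After thinning, 12.1% (7.45 to 18.3) and 13.9% (7.99 to 21.9) of cells held *Icam1*, and unthinned 41.4% and 45.7% did. *Vcam1* had 3 and 7 UMIs. A difference between the libraries in either ligand was not detectable in keratinocytes at this depth. *Icam1*, the one member with 50 UMIs there, passed 2-fold neither way, against 1.5% of 6725 genes upward and 0.401% downward. *F11r* (1.57, 1.22 to 2.03), and *Cd34* (1.45, 0.872 to 2.40), had the largest ratios among further adhesion genes, and *Tpst1* (0.589) and *Rap1a* (0.743) the smallest. *Itgb1* was at 105 and 92.3.

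Outside these classes, Schwann or glial cells had the largest *Icam1* ratio. *Icam1* there was at 10.6 (5.07 to 19.4) in 301 control cells and 40.0 (30.2 to 51.9) in 311 ACD cells, a ratio of 3.78 (1.91 to 8.31), and *Vcam1* at 4.23 (1.15 to 10.8) and 32.8 (24.0 to 43.8), a ratio of 7.77 (2.84 to 29.7). Both members measured there passed 2-fold upward, where 2.04% of 5871 genes did so and 0.119% passed downward. *Icam1* had 10 control and 56 ACD UMIs and *Vcam1* 4 and 46. Both thus reached the minimum of 50 UMIs mainly through the ACD library, and their count is not read against that background. The *Vcam1* UMIs lay in 4 control and 15 ACD cells, and the direction did not hold when every cell was assigned to the class of highest likelihood, which gave a ratio of 0.846. Chondrocytes of the ear cartilage had *Icam1* at 266 (261 to 272) and 320.3 (313 to 327), a ratio of 1.202 (1.17 to 1.24), the other way from fibroblasts. Muscle cells had *Vcam1* at 748 (633 to 879) in 44 control and 521 (455 to 593) in 80 ACD cells. Cells passing no gate held 14.9% of control and 27.1% of ACD *Vcam1* UMIs, at 92.2 and 167 CPM.

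**Figure D4:**
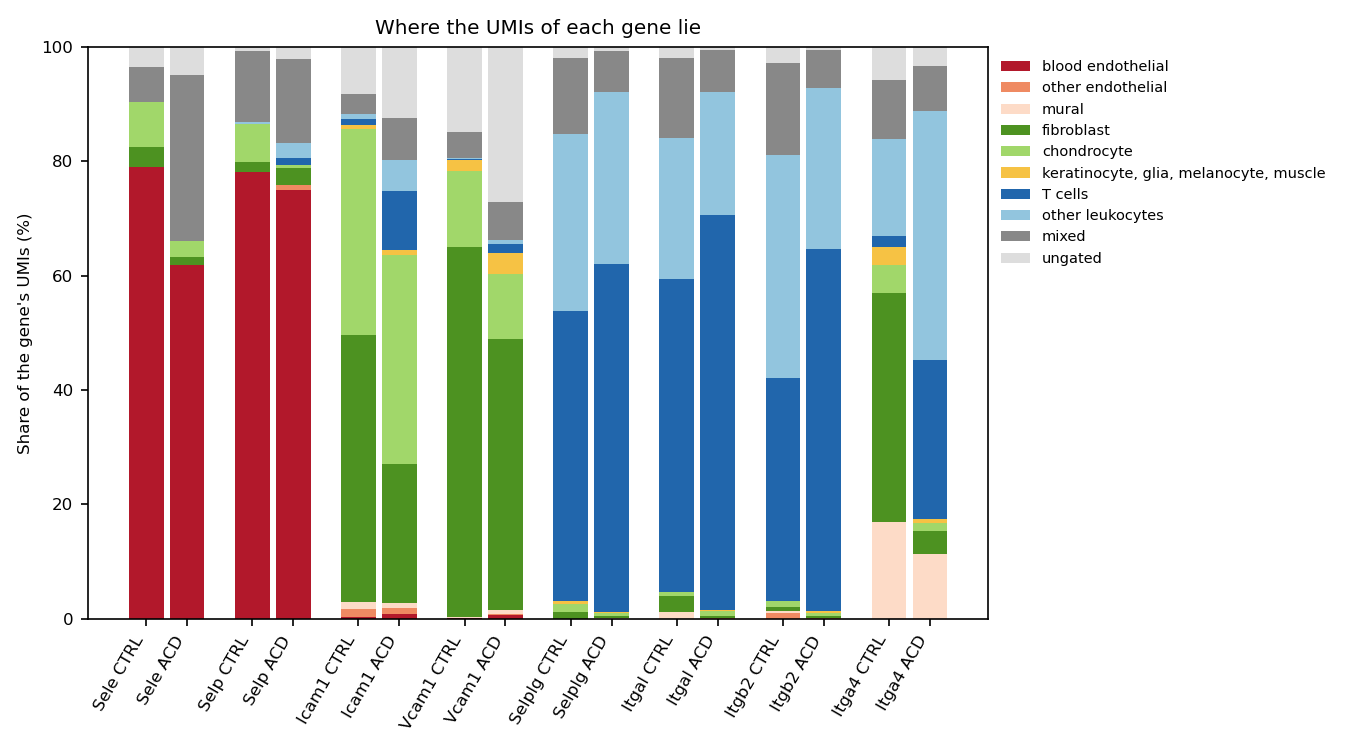
Share of the UMIs of each gene (vertical axis, percent) lying in each group of gated cells of the CTRL and ACD libraries, 1 stacked bar per gene and library. Sele and Selp lay mostly in blood endothelial cells, Icam1 and Vcam1 mostly in fibroblasts and chondrocytes, and Selplg, Itgal and Itgb2 mostly in leukocytes.

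The counter-receptors lay mostly on leukocytes. The leukocyte gates took 994 control and 4181 ACD cells, 8.14% and 35.8% of kept cells, and these held 81.8% and 90.9% of *Selplg*, 79.5% and 90.6% of *Itgal*, and 77.9% and 91.6% of *Itgb2* UMIs. *Itga4* was the exception: in control 19.0% (15.6 to 22.9) of its UMIs lay in leukocytes and 40.0% in fibroblasts, and in ACD 71.3% (69.1 to 73.5) in leukocytes and 66 of 1650 UMIs in fibroblasts. *Ptprc* was found in 78.9% and 87.8% of gated leukocytes, and *Col1a1*, a fibroblast collagen, in 27.1% and 19.1%.

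In CPM of all gated leukocytes, *Selplg* was at 233 (219 to 248) in control and 297 (290.3 to 303) in ACD, a ratio of 1.27 (1.19 to 1.36). *Itgal* was at 73.7 (65.8 to 82.2) and 91.5 (87.9 to 95.2), a ratio of 1.24 (1.10 to 1.40). *Itgb2*, the chain that LFA-1 shares with Mac-1, was at 51.0 (44.5 to 58.1) and 108 (104 to 112), a ratio of 2.11 (1.84 to 2.43). *Itga4* was at 20.2 (16.2 to 24.9) and 44.0 (41.5 to 46.6), a ratio of 2.18 (1.75 to 2.74). All 4 levels were higher in the ACD library, those of *Itgb2* and *Itga4* by the larger factor.

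The leukocyte mix differed strongly between the libraries, however. Gated CD8 T cells numbered 8 in control and 597 in ACD, CD4 T cells 31 and 528, regulatory T cells 22 and 453, NK or ILC1 cells 13 and 523, and basophils 5 and 212, while ILC2 numbered 109 and 93 and dendritic epidermal T cells (DETC) 103 and 109. With each ACD subset level weighted by the control mix, a choice made after seeing the data, the ratios became 1.15 for *Selplg*, 1.08 for *Itgal*, 1.56 for *Itgb2* and 2.12 for *Itga4*. The first 3 thus moved toward 1 and *Itga4* stayed near its value. The weighting took T cells outside the named subsets, 217 and 556 cells, as 1 subset, and likewise other leukocytes, 172 and 307 cells. Whether the make-up of these leftover groups differed between the libraries was not tested.

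After thinning to 2000 UMIs, *Itgb2* was found in 9.34% (7.50 to 11.5) of 878 control and 18.3% (17.1 to 19.6) of 3948 ACD leukocytes, and *Itga4* in 2.39% (1.49 to 3.63) and 7.88% (7.06 to 8.76). *Selplg* was found in 36.8% (33.6 to 40.1) and 43.8% (42.2 to 45.3). *Itgal* was found in 14.6% (12.3 to 17.1) and 15.8% (14.7 to 16.96), so at matched depth its intervals overlapped. Left out as shallower were 116 and 233 cells, and the unthinned shares were 19.0% and 41.0% for *Itgb2*, 4.93% and 15.02% for *Itga4*, 51.8% and 72.0% for *Selplg* and 24.6% and 37.1% for *Itgal*. The median depth of leukocytes was 3538 and 5126 UMIs. In thinned chondrocytes, which should lack these genes, the shares were at most 0.355%, for *Selplg* in ACD.

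Within single subsets the 4 genes parted. In gamma delta T17 cells, the IL-17-producing T cells, 166 in control and 427 in ACD, *Selplg* was at 295 and 281, a ratio of 0.950 (0.825 to 1.10), and *Itgal* at 100.4 (80.5 to 124) and 113 (101 to 126). *Itgb2* there was at 45.6 and 61.0, a ratio of 1.34 (0.945 to 1.93), and *Itga4* had 0 and 8 UMIs. In DETC, the resident T cells of mouse epidermis, *Selplg* was at 104 (74.5 to 141) and 185 (155 to 220.0), and *Itgb2* at 12.7 (4.11 to 29.6) and 42.8 (28.8 to 61.0), a ratio of 3.38 (1.30 to 11.1). *Itga4* in DETC had 2 and 18 UMIs, a ratio of 5.06 (1.21 to 45.0). In ILC2 none of the 4 had an interval that left out 1, with ratios from 0.893 for *Itgal* to 1.30 for *Itga4*. Differences between subsets were not tested.

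T cells as a whole, 547 and 2670, had *Itgb2* at 42.9 (35.3 to 51.7) and 104 (99.8 to 109), a ratio of 2.43 (2.01 to 2.97). *Itga4* in T cells had 9 UMIs in 8 control cells and 458 in 262 ACD cells, levels of 3.48 (1.59 to 6.60) and 24.0 (21.9 to 26.3) and a ratio of 6.91 (3.61 to 15.2). With the control mix of T cell subsets the ratios were 6.75 for *Itga4* and 1.84 for *Itgb2*. That mix counted the T cells outside the named subsets as a single subset, and differences in their make-up were not tested. T cells outside the named subsets, 217 and 556 cells, had 0 and 138 *Itga4* UMIs, at least 13.8-fold higher in ACD against a floor of 3 UMIs in that control class. *Itgb2* in these cells was at 45.1 and 97.8, a ratio of 2.17 (1.58 to 3.03).

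In the ACD library, where every named subset but Langerhans cells had over 30 cells, the genes ranked subsets differently. *Selplg* was highest in 62 neutrophils, at 654 (533 to 793), and 523 NK or ILC1 cells, at 491 (464 to 518), then in 79 dendritic cells at 322 (286 to 362). These 3 intervals did not overlap. T cell subsets lay between 185 in DETC and 296 in other T cells. *Selplg* was lowest in 142 mast cells, which are resident in tissue, at 51.9 (29.7 to 84.3). *Itga4* was at 194 (132 to 275) in the 12 Langerhans cells, 139.8 (126 to 155) in NK or ILC1 cells, 122 (73.3 to 190.1) in neutrophils, 110.2 (58.7 to 188) in 36 B cells and 107 (86.1 to 130.4) in dendritic cells, with neighbouring intervals that overlapped. It was at 2.67 (1.15 to 5.25) in gamma delta T17 cells, below CD4 T cells at 23.4 (18.8 to 28.8) and CD8 T cells at 30.5 (25.9 to 35.5).

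*Itgb2* in ACD was at 199 (135 to 282) in neutrophils, 169 (132 to 213) in 45 macrophages, 163 (148 to 179) in NK or ILC1 cells and 131 (121 to 141) in CD8 T cells, and at 3.25 in mast cells, from 1 UMI. *Itgal* was at 211 (146 to 297) in neutrophils, 118 (109 to 128) in CD8 T cells and 116 (103 to 129) in NK or ILC1 cells, and at 22.7 (13.9 to 35.0) in dendritic cells. Mast cells had no *Itgal* UMI, which allows up to 9.74 CPM in ACD. In macrophages, 27 control and 45 ACD cells, *Itgb2* was at 62.2 and 169, a ratio of 2.72 (1.49 to 5.35), and *Selplg* at 86.2 and 212, a ratio of 2.46 (1.47 to 4.34). *Itga4* went opposite ways in the antigen-presenting subsets, at 214 and 107 in 14 control and 79 ACD dendritic cells, a ratio of 0.498 (0.325 to 0.784), and at 52.8 and 194 in 17 and 12 Langerhans cells, a ratio of 3.67 (1.65 to 9.25). The control library held 3 neutrophils, 5 basophils, 5 B cells and 8 CD8 T cells, so no comparison is drawn for these.

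**Figure D5:**
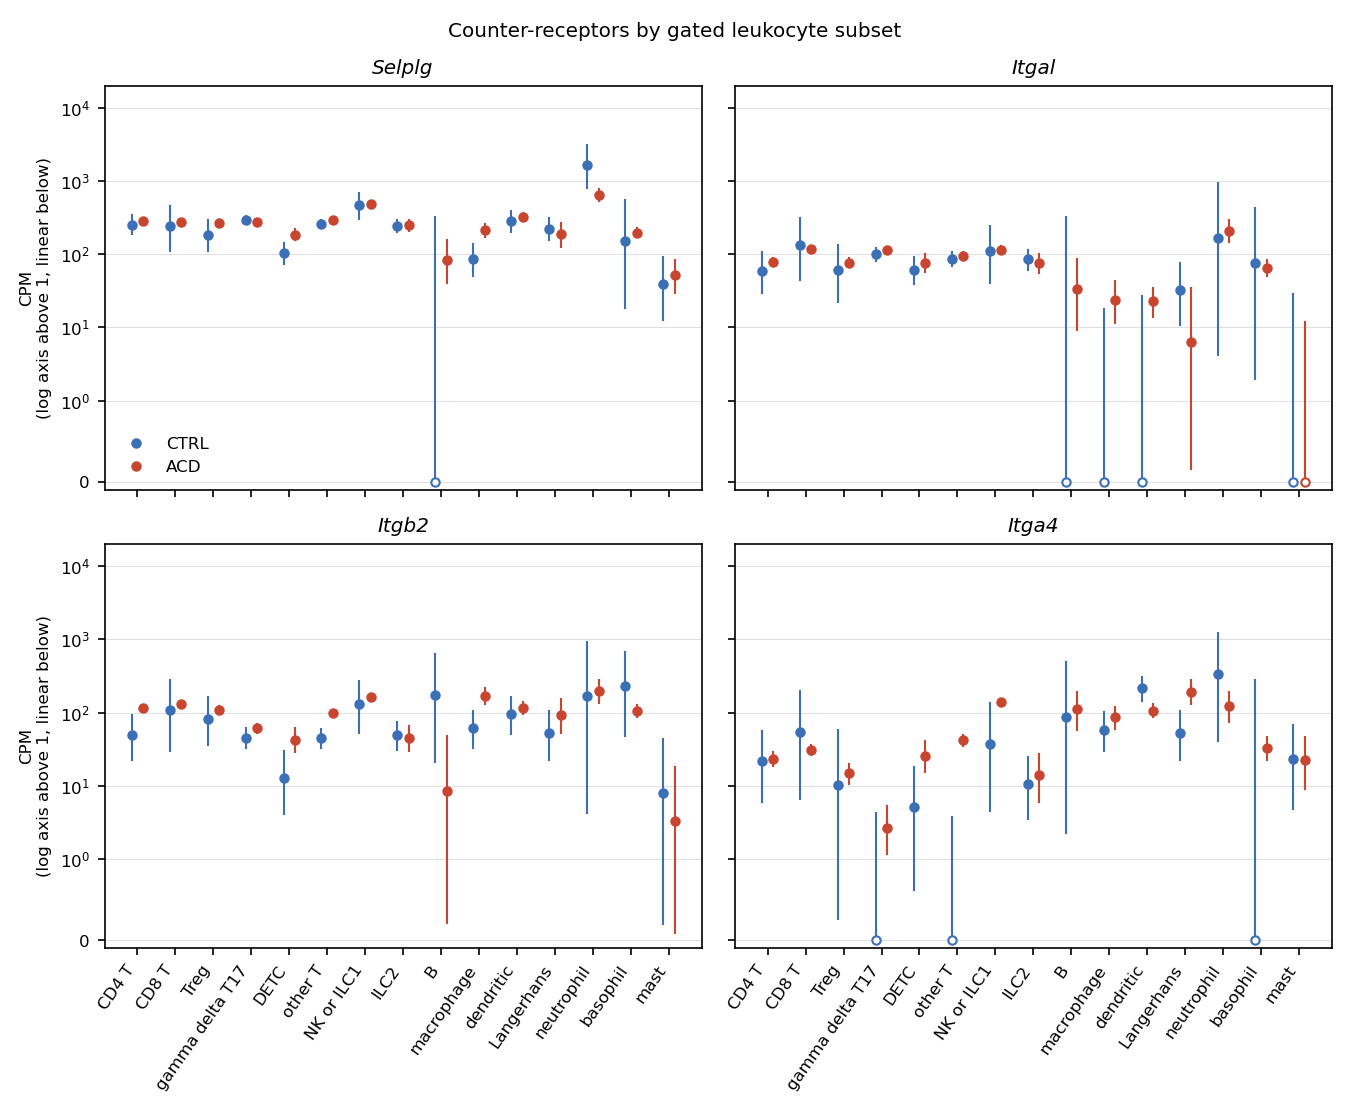
UMIs per 1000000 UMIs (vertical axis, logarithmic above 1 and linear below) of the 4 counter-receptors in 15 gated leukocyte subsets of the CTRL and ACD libraries, with exact 95% Poisson intervals as bars and open symbols at 0. Selplg was found in nearly every subset, Itgal was low in myeloid subsets other than neutrophils and basophils, and Itga4 was low in gamma delta T17 cells.

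Leukocytes also carried *Icam1*, at 108 (98.6 to 118) in control and 133 (129 to 138) in ACD, a ratio of 1.23 (1.12 to 1.36). In ACD it was at 268 (249 to 289) in NK or ILC1 cells and 161 (147 to 176) in gamma delta T17 cells. In macrophages it was at 211 (153 to 283) and 71.5 (48.2 to 102), the other way from leukocytes as a whole. By the all-gene measure, 6 members reached 50 UMIs in leukocytes and 0 passed 2-fold, with *Itgb2* at 0.95 and *Itga4* at 0.84 on that log2 scale, against 1.32% of 11540 genes upward and 1.22% downward. In T cells 2 of 6 passed upward, *Itgb2* and *Itga4*, and 0 downward, against 1.28% and 1.62% of 10510 genes. *Itga4* reached 50 UMIs there through the ACD library, with 9 UMIs in control and 458 in ACD.

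Other leukocyte adhesion genes were read the same way. Their values are over all gated leukocytes or all T cells, whose subset mix differed between the libraries. They were not weighted to the control mix. Of 8 further rolling and adhesion proteins reported here, 2 passed 2-fold upward in leukocytes, *Cd6* and *Cd2*, and 0 downward. Over all genes, 1.32% of 11540 passed upward and 1.22% downward. *Cd6*, a receptor for ALCAM, was at 33.3 and 123, a ratio of 3.70 (3.13 to 4.40), and *Cd2* had a ratio of 2.47 (2.29 to 2.67). Of 11 further integrin chains 10 were measured, and 0 passed either way, with a median log2 ratio of 0.13 against -0.08 over all genes. *Itgb1*, which pairs with *Itga4*, was at 132 and 219, a ratio of 1.66 (1.52 to 1.81), while *Itgb7*, its other partner, was at 303 and 214, a ratio of 0.708 (0.667 to 0.753). *Itgam* was at 8.95 and 15.4 and *Itgax* at 9.41 and 12.7. The smallest ratios were those of *Itgae*, encoding CD103, at 0.526 (0.490 to 0.566) and *Cd44* at 0.615 (0.585 to 0.647). Of the enzymes that build selectin ligands, 8 of 9 were measured and 0 passed, and of 8 genes of integrin activation 0 passed. In T cells 2 of 8 rolling and adhesion proteins reported here, again *Cd6* and *Cd2*, passed upward, against 1.28% of 10510 genes. *Itgax* had 2 and 95 UMIs in T cells, a ratio of 6.45 (1.74 to 54.0), and *St3gal6* (0.487) and *Icam2* (0.496) had the lowest ratios of the listed genes.

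As a description of likeness, each gene was correlated, as log2 of CPM plus 10, with 11491 others over 38 units, a unit being a class of at least 50 cells in 1 library. The units share libraries and depths, most lie near 0 for a gene of 1 class, and endothelial cells, mostly lymphatic, enter as 1 class. *Sele* was most like *Tie1* (0.99), *Tmem252* (0.99) and *Cldn5* (0.99) by Pearson's r, and *Selp* most like *Flt4* (0.99), *Rasip1* (0.98) and *Lyve1* (0.98), of which *Tie1*, *Cldn5*, *Flt4* and *Lyve1* were gate markers. *Icam1*, spread over many classes, had lower values, led by *Klf10* (0.70), *Dab2* (0.67) and *Gdf10* (0.62). *Vcam1* was most like *Htra3* (0.87), *Ptprd* (0.85) and *Svep1* (0.84). *Selplg* was most like *Coro1a* (0.99), itself a marker of the leukocyte gate, *Hcls1* (0.99) and *Cytip* (0.98). *Itgal* was most like *Fmnl1* (0.97), *Acap1* (0.97) and *Pstpip1* (0.97), and *Itgb2* like *Glipr1* (0.99), *Selplg* (0.96) and *Traf1* (0.96). *Itga4* was most like *Relt* (0.79), *Ly6c2* (0.71) and *Bcl2l11* (0.71).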

How the data were processed

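Ear skin of 1 control and 1 ACD library was digested with collagenase D and DNase1, dead cells were removed, and libraries were made with the 10x 3′ kit v2. The authors aligned reads to mm10-1.2.0 with Cell Ranger (3.1.0 per the labels and file headers, 3.0.2 in the methods) and deposited UMI counts of each gene in each barcode, with no normalization. The counts summed to 99037698 UMIs in control and 126566870 in ACD.

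Barcodes were kept when they had 201 to 4999 genes, no more than 25000 UMIs and a mitochondrial share below 8%. The methods print 25000 UMIs with a sign for above, read here as an upper limit. Classes were gates on the number of markers with a UMI: at least 4 for endothelial cells, pericytes and smooth muscle, 5 for fibroblasts, chondrocytes and keratinocytes, and 3 for leukocytes, glia, melanocytes and muscle. Gate thresholds were set after seeing the data. No doublet caller was run. Barcodes past more than 1 lineage gate were set apart as mixed. So were those past 1 such gate with over 2% fibroblast-marker or over 0.5% chondrocyte-marker UMIs. Leaving out cells above 15000 UMIs was an alternative.

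Levels were UMI sums per 1000000 UMIs of a class (CPM) with exact Poisson intervals, ratios had exact conditional intervals, and shares had Clopper-Pearson intervals, all at 95%. With 1 library per group no test was run. The members and gene lists were chosen with earlier results of these data known. All 8 genes were followed in every class, and of 53 genes in 5 pathway lists those named had the 2 largest and the 2 smallest ACD to control ratios of a class among genes with at least 50 UMIs, plus *Itgam*, *Itgax*, *Itgb1*, *Itgb7* and *Icam2*. *Cd2* in leukocytes was named after its value was seen, and 1 listed gene is not reported here. Gene models came from GENCODE on GRCm38, where 27722 of 27998 identifiers were found, and promoters from RefSeq. Python 3.11.15, numpy 2.4.6, scipy 1.17.1, pandas 2.3.3 and matplotlib 3.10.9 were used. The ratio intervals were tried on simulated Poisson counts, the model they assume, which holds no spread between cells. The gates were tried only on sums of an ACD endothelial and an ACD leukocyte cell.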

Additional observations from a re-analysis of the deposited data

Results flagged for a closer look

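The ACD to control ratio of a gene pointed in different directions, or differed in size, between cell classes, and none of these differences between classes was tested. *Icam1* had a ratio of 0.792 in pooled endothelial cells, 0.693 in pericytes, 0.675 in mural cells of both panels and 0.794 in fibroblasts, against 1.202 in chondrocytes, 1.23 in leukocytes and 3.78 in glia. *Vcam1* had a ratio of 9.03 in pooled endothelial cells, 7.96 in smooth muscle, 4.19 in mural cells of both panels, 1.23 in fibroblasts, 1.12 in chondrocytes, 7.77 in glia, 9.18 in melanocytes and 1.83 in leukocytes, against 0.696 in muscle. The pooled endothelial ratio lay between 3.54 and 30.7 over the settings tried, and the melanocyte ratio rests on 1 control UMI. *Selp* had a ratio of 3.27 in fibroblasts and 0.127 in chondrocytes, at levels under 1 UMI per 1000000 UMIs (CPM) in both libraries. *Itga4* had a ratio of 1.92 in mural cells of both panels and 2.18 in leukocytes, against 0.582 in fibroblasts.

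Barcodes set apart as mixed, which entered no class, carried *Icam1* at 191 CPM in control and 240.3 in ACD, and *Sele* at 1.58 and 12.3.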

How the results depend on the processing

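Of 243 alternative values of 25 ratios, 194 lay within the 95% counting interval of the reported ratio, 49 lay outside it, and 6 of the latter lay on the other side of 1. The causes were not tested. Those 6 were *Vcam1* in fibroblasts (0.962) and *Sele* in pooled endothelial cells (0.169) without cells above 15000 UMIs, the latter as a mean over cells (0.882), *Vcam1* in glia by likelihood assignment (0.846), and *Selp* in pooled endothelial cells, whose reported interval included 1, with all barcodes (1.26) and a stricter filter (1.11). Without cells above 15000 UMIs, blood endothelial *Sele* was 0.0861 and *Selp* 0.181, fibroblast *Icam1* 0.751 and leukocyte *Itga4* 2.75. As a mean over cells, fibroblast *Icam1* was 0.759 and *Vcam1* 1.11, and leukocyte *Selplg* 1.42 and *Itga4* 3.25. Thinned to 2000 UMIs, blood endothelial *Selp* was 0.227, fibroblast *Vcam1* 1.16, and leukocyte *Itgal* 1.10 and *Itga4* 3.82. By likelihood assignment, *Selp* was 0.193, fibroblast *Vcam1* 1.33 and *Selplg* 1.36. With all barcodes *Selp* was 0.360 and *Selplg* 1.17, with a stricter filter *Selp* was 0.381, and with median-of-ratios size factors *Selplg* was 1.41. With at most 1 marker of a second lineage tolerated, fibroblast *Vcam1* was 1.18. That limit was looser for pericyte and keratinocyte markers and was not set for fibroblast and chondrocyte markers. Choices made after seeing the data had these effects: with mixed barcodes kept, blood endothelial *Icam1* was 0.888, *Sele* 0.861 and *Selp* 0.365, and at the control subset mix *Selplg* was 1.15, *Itgal* 1.08 and *Itgb2* 1.56. Pooled endothelial *Vcam1* ranged from 3.54 with mixed barcodes kept to 30.7 by likelihood assignment, and blood endothelial *Vcam1* from 3.87 to 21.9. No *Vcam1* ratio could be computed in blood endothelial cells or pericytes after thinning, or in keratinocytes without cells above 15000 UMIs. The pericyte *Icam1* ratio lay between 0.615 and 0.787 and the keratinocyte one between 1.04 and 1.40.

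Counts of all genes past 2-fold depended on the settings. In blood endothelial cells 137 genes passed upward and 84 downward, and 369 and 241 did with at least 20 UMIs. With 1 CPM added in place of 10, fibroblasts went from 101 and 12 to 260 and 52, leukocytes from 152 and 141 to 429 and 635, and T cells from 135 and 170 to 384 and 694. Downward counts then went from 60 to 133 in pooled endothelial cells, from 61 to 126 in pericytes and from 27 to 77 in keratinocytes. Under that setting 2 of the 6 members measured in leukocytes and 1 of 4 in fibroblasts passed upward, against 0 before in each. Over all genes, 429 of 11540 in leukocytes and 260 of 12234 in fibroblasts then passed upward.

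Blood endothelial values rest on 19 and 30 cells, and a single library per condition leaves variation between mice unmeasured. No paired analysis was possible because the groups share fewer than 2 replicate numbers.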

Other observations

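Over the 9 leukocyte subsets with at least 20 cells in each library, the level in ACD was above control in 8 for *Selplg*, 6 for *Itgal*, 7 for *Itgb2* and 8 for *Itga4*. The counting interval of the ratio lay above 1 in 4 of them for *Selplg*, 0 for *Itgal*, 4 for *Itgb2* and 2 for *Itga4*, and below 1 in 0 for each of these genes. *Icam1* was higher in ACD in 5 subsets, with the interval above 1 in 3 and below 1 in 1.

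Some cells sat on the edge of a gate. Of 3848 control and 1789 ACD fibroblasts, 392 and 287 had exactly 5 markers, and 286 and 193 ungated cells had 1 fewer. Of 224 and 100 pericytes, 46 and 15 had exactly 4 markers, with 52 and 18 ungated cells 1 below.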
